A study of Mus musculus with 8 samples.

Results

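Large peritoneal macrophage-like nuclei were sought among single nuclei from visceral white adipose tissue of mice. A nucleus was taken when at least 3 of the 8 genes Alox15, Vmn2r26, F5, Garnl3, Ofcc1, Saa3, Padi4 and Prg4 were detected in it, together with at least 1 of the 3 macrophage genes Adgre1, Csf1r and Mertk. By this rule 330 of 77987 nuclei were selected, or 0.423%. The 8 libraries came from 8 mice, in 4 groups of 2, and each mouse is named here by its group and the number in its label. All mice carried 1 modified p21 allele (gene Cdkn1a) whose name includes the red fluorescent protein mCherry. The mCherry SD mice, rep144 and rep146, were p21+/mCherry and were fed a standard diet. The mCherry HFD mice, rep128 and rep129, carried the same allele and were fed a high-fat diet (HFD). The Tert HFD mice, rep134 and rep136, were p21+/mCherry-Tert on the high-fat diet, and the TertCi HFD mice, rep138 and rep140, were p21+/mCherry-TertCi on that diet. Tert encodes the catalytic subunit of telomerase and was driven by the p21 promoter, so its expression follows that promoter rather than 1 cell type. What TertCi is was not spelled out in the labels, and ages were not given. The series' design text names the stromal vascular fraction and p21+/- mice on the high-fat diet, against whole frozen tissue and p21+/mCherry in the sample labels, and the sample labels were followed.

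Large peritoneal macrophages are the long-lived resident macrophages of the fluid that bathes the abdominal organs, including visceral fat. Their identity depends on the transcription factor GATA6, which is induced by retinoic acid made by mesothelial and stromal cells of the lining and of the fat. They are known for clearing dying cells, for the lipoxygenase gene Alox15, for coagulation factor V (F5), and for gathering on injured surfaces. Small peritoneal macrophages, which come from monocytes, carry Ccr2 and MHC class II genes instead.

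The libraries held between 23378488 and 139749876 UMIs (unique molecular identifiers, each standing for 1 captured RNA molecule), and the median nucleus held between 1716 and 3655 UMIs. Between 3233 and 21996 nuclei per library passed the limits of at least 1000 UMIs, 300 genes or more and a mitochondrial share of UMIs of 5% or less. In mCherry HFD rep128 (21996), TertCi HFD rep138 (13728) and Tert HFD rep134 (13202) this was above the upper estimate of nuclei loaded per sample in the labels' protocol. Pairs of libraries shared at most 0.699% of the smaller library's barcodes, and 0 barcodes of selected nuclei were shared. Library mCherry HFD rep128 stood apart. It held the most nuclei, and its selected nuclei had the highest median depth. The highest doublet scores were marked at a share set by the number of nuclei, 17.6% in this library and 2.60% to 10.98% in the others. Of its 36 selected nuclei 23 (63.9%) were marked, against 0 to 25.8% in the other libraries that had any, and because the preset shares differ these percentages cannot be compared directly. Counts and ratios without this library stand with the results. UMIs in barcodes with at most 100 UMIs were summed per library as a measure of free RNA, which enters every droplet.

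The 8 genes that chose the nuclei were detected unevenly among them. Garnl3 was found in 83.6% of the 330 nuclei, Alox15 in 67.3%, Prg4 (the lubricating surface protein proteoglycan 4) in 62.1%, Padi4 (a peptidyl arginine deiminase) in 61.2% and Vmn2r26 (a vomeronasal-type receptor) in 198 of the 330. Ofcc1, F5 and Saa3 (serum amyloid A3) were found in 45.5%, 44.2% and 43.9%. Of the macrophage genes, Adgre1 (an adhesion receptor of macrophages) was found in 93.0%, Mertk (a receptor for dying cells) in 77.3% and Csf1r (the macrophage growth factor receptor) in 51.5%. These values chose the nuclei and are descriptions only. Alox15 stood at 107, 141, 89.7, 249, 241 and 201 CPM (UMIs of a gene per 1000000 UMIs of the summed nuclei) in the selected nuclei of mCherry SD rep144, mCherry SD rep146, mCherry HFD rep128, mCherry HFD rep129, Tert HFD rep134 and TertCi HFD rep138, and at 1.06 to 9.66 CPM in free RNA. These 6 libraries are the ones with at least 10 selected nuclei, and 6 values for 1 gene are given in this order throughout.

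The 8 genes were detected together, which is a description only, because the selection was chosen with earlier results of these data known. When each gene was set aside and nuclei were chosen by at least 3 of the other 7, Alox15 was found in 62.5% of the nuclei so chosen and in 0.189% of macrophage-gated nuclei with none of the other 7. With the gene set aside counted after thinning every nucleus to 1000 UMIs, which left out 0 nuclei, these were 24.3% and 0.0629%. The nuclei were still chosen at their own depth. Vmn2r26 followed with 56.6% against 0.118% (thinned 20.1% against 0.0403%) and F5 with 40.5% against 0.294% (thinned 9.71% against 0.106%). Garnl3 was the least particular of the 8, with 78.1% against 14.3% (thinned 36.4% against 3.69%). The other 4 lay between 37.5% and 56.9% in the chosen nuclei and between 0.224% and 1.48% in the rest. All 8 genes kept this order between the chosen nuclei and the rest after thinning. These are shares over all libraries together. Among nuclei with none of the other 7, Saa3 was found in 0.324% and 0.395% in mCherry SD and 2.21% and 3.41% in mCherry HFD. Prg4 was found there in 0.324% and 0.591%, and in 1.68% and 1.54%. In the Tert and TertCi libraries these were at most 1.34% and 0.821%. In mCherry HFD rep128 Alox15 and Vmn2r26 were in 38.9% and 29.4% of the chosen nuclei, and in rep129 in 60.7% and 75.9%.

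The number of the 8 genes per nucleus fell off steadily in some libraries and had a low point above the threshold in others. Among the 48856 nuclei with a macrophage gene, 8244 held 1 of the 8 genes, 595 held 2, 109 held 3, 60 held 4, 63 held 5, 49 held 6, 24 held 7 and 25 held all 8. In mCherry SD rep144 20, 15, 7, 2 and 0 nuclei held 4, 5, 6, 7 and 8 genes. In Tert HFD rep134 9 nuclei held 3 genes, 2 held 4, and 8, 10, 5 and 9 held 5, 6, 7 and 8. In mCherry HFD rep128 21 held 3 genes, 1 held 4, and 4, 1, 3 and 6 held 5, 6, 7 and 8. Just outside the threshold, nuclei with exactly 2 of the 8 genes carried 529.5 to 1199.8 CPM of the 22 further large peritoneal macrophage genes described next, in the same 6 libraries. Just inside, nuclei with exactly 3 carried 1754, 2559, 2729, 1729 and 3704 CPM in mCherry SD rep146, mCherry SD rep144, mCherry HFD rep129, Tert HFD rep134 and TertCi HFD rep138, but 1103 CPM in mCherry HFD rep128. In mCherry HFD rep128, 21 of the 36 selected nuclei held exactly 3 genes, and these stood at the level of that library's nuclei with 2 genes, 1109 CPM. Nuclei with 5 or more of the 8 genes, 161 in all, carried 2649.9 to 6399.8 CPM of these 22 genes, and 4459.7 CPM in mCherry HFD rep128.

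**Figure D1:**
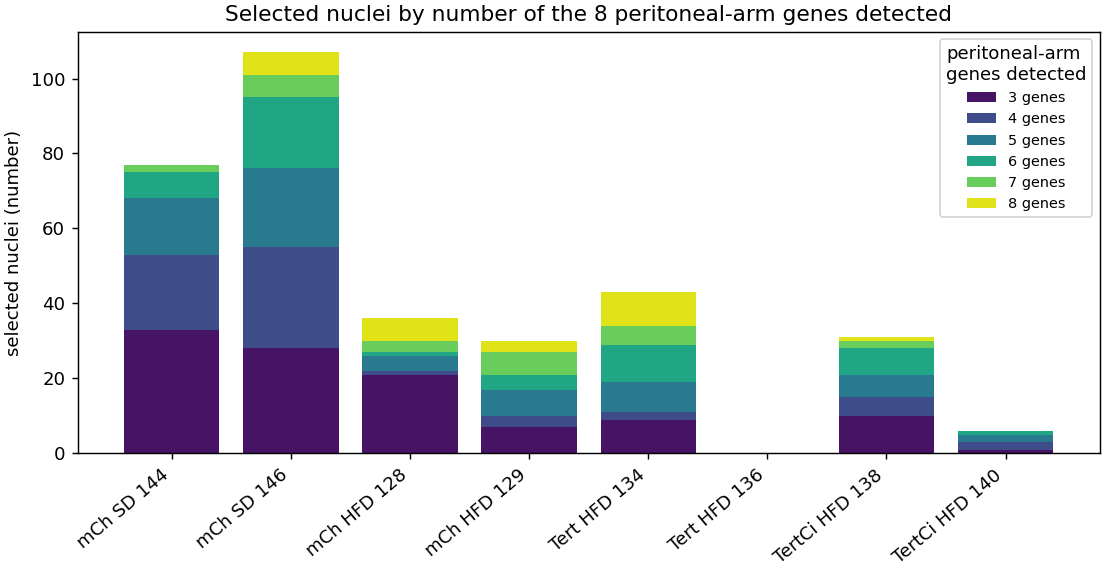
Number of selected nuclei in each library (mCh stands for mCherry), stacked by how many of the 8 peritoneal-arm genes were detected in the nucleus. Nuclei with exactly 3 genes make up 21 of the 36 in mCherry HFD rep128, and Tert HFD rep136 has 0 selected nuclei.

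Outside the rule, 22 further genes known from large peritoneal macrophages were followed against 21719 other macrophage nuclei, which held at least 2 of the 3 macrophage genes and none of the 8. Of these 22 genes, 16 were higher in the selected nuclei in each of the 6 libraries (11 after thinning to 1000 UMIs), and 13 by more than 4-fold in the mean. Their median log2 ratio was 2.55. Over all 4136 genes with at least 50 CPM in either population, 12.6% were higher in every library and the median log2 ratio was -0.04. The 22 genes were not held to this limit of 50 CPM. Selected and unselected nuclei are the contrast that the rule made, so no test is given. The sum of the 22 genes was 2667, 3022, 2490.3, 4131, 5124 and 4422 CPM in the selected nuclei, 678 to 956 CPM in other macrophage nuclei and 799 to 1510 CPM in free RNA. Every library's selected nuclei lay above both.

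Among the transcription factors, Gata6 stood at 73.2, 69.3, 73.4, 70.0, 86.6 and 90.7 CPM in the selected nuclei and at 12.2 to 28.3 CPM in other macrophage nuclei. All 6 libraries lay close together, but free RNA held 25.1 to 64.7 CPM of it, and the mean was only 1.81-fold above free RNA. Mesothelial nuclei are known to express Gata6 too. Rarb, a nuclear receptor for retinoic acid, stood at 103, 74.1, 96.5, 124, 183 and 217 CPM, against 14.5 to 30.7 CPM in other macrophage nuclei and 10.8 to 36.0 CPM in free RNA. The selected nuclei were above both in every library. Cebpb and Bhlhe40, transcription factors of wider use among macrophages, were 2.12- and 1.88-fold above other macrophage nuclei but 0.891- and 0.918-fold of free RNA.

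Tgfb2, a transforming growth factor, was at 272, 242, 181, 214, 493 and 478 CPM in the selected nuclei, 8.57 to 25.6 CPM in other macrophage nuclei and 22.8 to 46.0 CPM in free RNA. Ltbp1, which binds latent TGF-beta in the matrix, was at 799, 849, 561, 887, 1241 and 1118 CPM, 10.2-fold above other macrophage nuclei in the mean. Fibronectin (Fn1) was at 426, 674, 746, 1167, 1567 and 952 CPM, 4.83-fold above. In all 6 libraries these 3 genes were above other macrophage nuclei and above free RNA. Thrombospondin 1 (Thbs1) was 6.09-fold and the B-cell chemokine Cxcl13 14.0-fold above other macrophage nuclei. Slpi, a protease inhibitor, was 10.4-fold above other macrophage nuclei but only 1.79-fold above free RNA.

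P-selectin (Selp), an adhesion molecule, was at 24.0, 50.6, 39.4, 62.2, 49.0 and 95.7 CPM in the selected nuclei against 0.349 to 1.60 CPM in other macrophage nuclei and 0.920 to 4.67 CPM in free RNA. Serpinb2, an inhibitor of plasminogen activators, was at 17.3, 43.6, 19.0, 81.7, 94.1 and 35.3 CPM against 0 to 1.10 CPM, an 84.7-fold ratio of the means. Naip1, a sensor of the inflammasome, was at 10.7, 9.70, 19.0, 19.4, 28.2 and 40.3 CPM against 0 to 0.714 CPM. These 3 were separate from the other macrophage nuclei and from free RNA in every library. Integrin alpha 6 (Itga6) was 6.27-fold and Aspa, which breaks down N-acetylaspartate, 3.45-fold above other macrophage nuclei.

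Some genes of the list did not follow. Icam2, an adhesion molecule often used to sort large peritoneal macrophages, was sparse, at 2.66, 3.46, 9.51, 3.89, 22.6 and 10.1 CPM, although higher than in other macrophage nuclei in each library. Timd4, a receptor for phosphatidylserine on dying cells, was at 135.8, 56.1, 17.7, 124, 81.0 and 80.6 CPM and was lower than in other macrophage nuclei in mCherry SD rep146. Ednrb, an endothelin receptor, was above other macrophage nuclei in 4 of 6 libraries. The scavenger receptor Marco was at 0 in mCherry HFD rep129, and Cd93, Brinp3 and Lrg1 were higher in only 1, 2 and 4 of the 6 libraries.

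**Figure D2:**
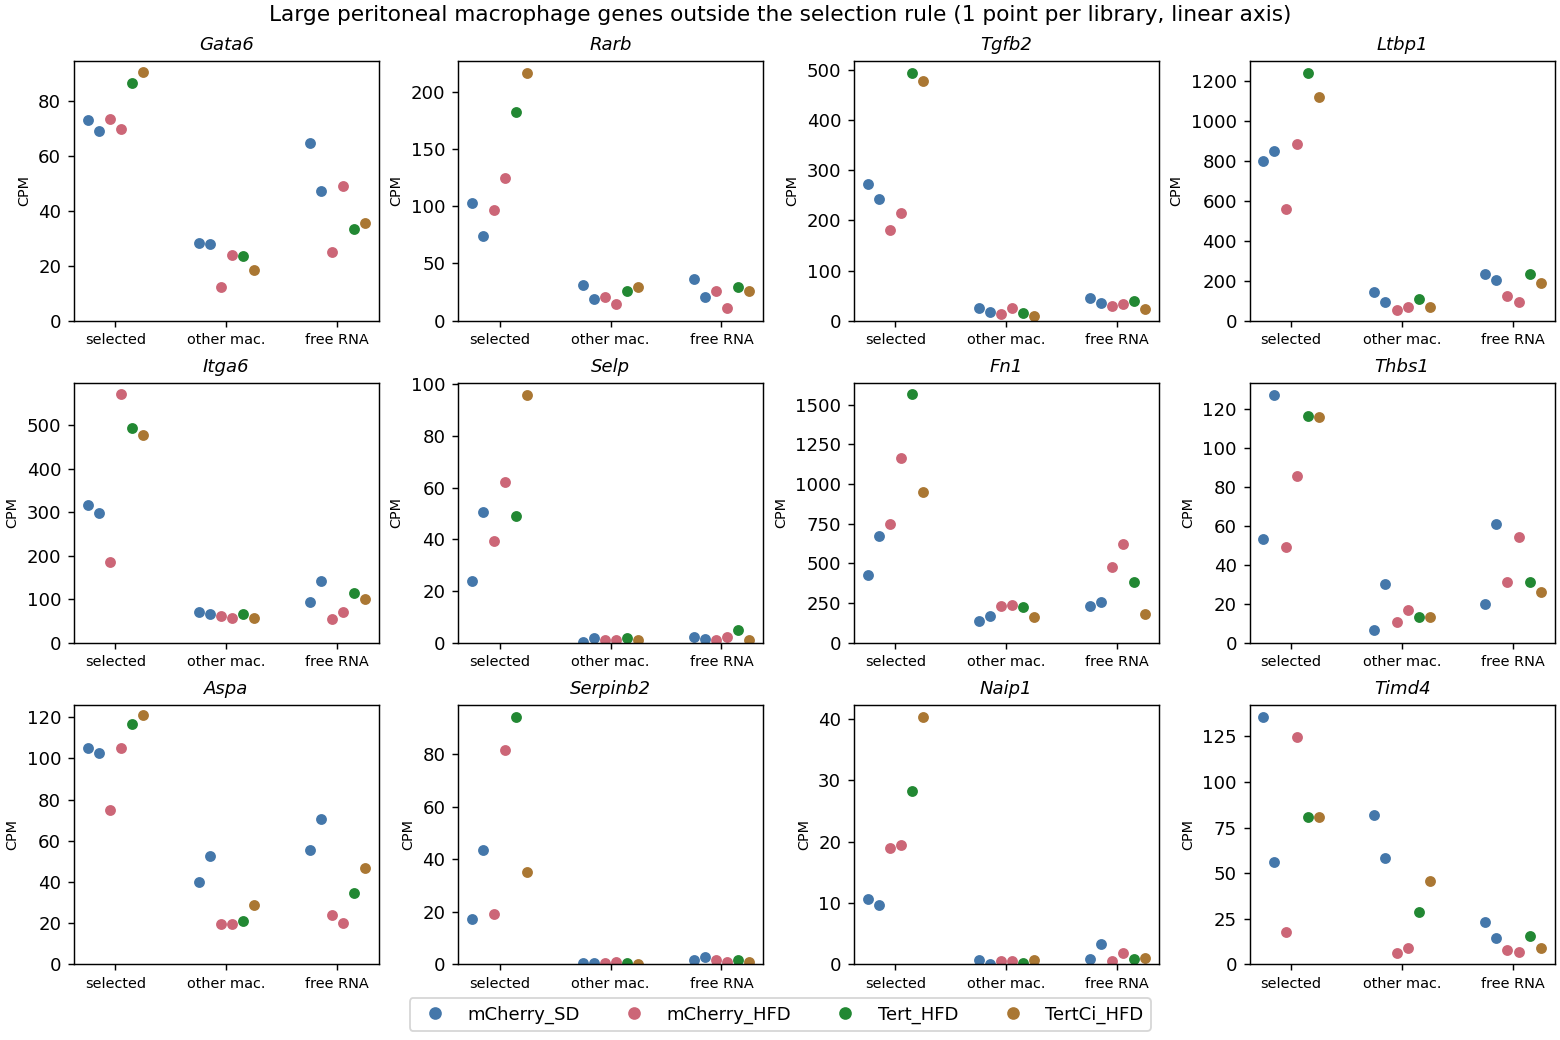
Level in CPM (linear axes) of 12 large peritoneal macrophage genes that took no part in the selection, with 1 point per library in the selected nuclei, other macrophage nuclei and free RNA, coloured by group. Selp, Serpinb2, Naip1, Tgfb2 and Ltbp1 are separate in every library, while Gata6 in free RNA of mCherry SD rep144 (64.7 CPM) comes close to the selected nuclei, and Timd4 overlaps with other macrophage nuclei.

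Across all genes, 22 of the 4136 were at least 4-fold higher in the mean and higher in every library, and 21 of these also reached at least 2 times the free RNA. Beyond the list they included Rp1 (73.4-fold, a microtubule protein known from photoreceptors), the guanylate-binding protein gene Gbp2b (20.9-fold), the androglobin gene Adgb (15.2-fold), Rab27a (13.6-fold, a regulator of secretory vesicles), the calcium release channel gene Ryr2 (13.3-fold) and Edil3 (11.6-fold, a secreted integrin ligand). Rp1 was at 53.3, 61.7, 67.9, 233, 86.6 and 161 CPM in the selected nuclei and at 0.481 to 2.52 CPM in other macrophage nuclei. In the other direction 836 genes were lower in every library, but only 1, Slc14a1, by at least 4-fold. The resident tissue macrophage genes Mrc1, Cd163 and F13a1 had means of 443, 89.1 and 909 CPM, against 1214, 245 and 2469 CPM in other macrophage nuclei. Against free RNA, Mrc1 was at 1.003 times, Cd163 at 1.06 times and F13a1 at 1.31 times, and F13a1 was above it in 5 of the 6 libraries.

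Markers of other cells were also present. The 9 adipocyte markers summed to 17637, 14593, 3444, 1408, 7777 and 12853 CPM in the selected nuclei and to 14937, 14691, 1928, 2318, 7165 and 11945 CPM in free RNA, and 0 of the 9 were undetected in any of these libraries. In other macrophage nuclei they summed to 11889, 10901, 1225, 1509, 4348 and 6949 CPM. The selected nuclei thus held more adipocyte RNA than other macrophage nuclei in each library except mCherry HFD rep129. The 12 mesothelial markers summed to 143 to 554 CPM in selected nuclei and 251 to 733 CPM in free RNA, with 0 to 5 of the 12 undetected. Of the 330 nuclei, 76 held at least 2 mesothelial markers, 132 at least 3 adipocyte markers, 58 passed a gate for lipid-associated macrophages and 102 a gate for perivascular macrophages. Leaving out the nuclei with at least 2 mesothelial markers gave 1143 genes called for diet, against 1687 with them. The part of the adipocyte markers and of both gates in the results was not tested. The 7 eosinophil markers, of interest because eosinophils also carry Alox15, summed to 1.33 to 16.3 CPM, and their defining genes Siglecf and Epx were at 0 in the selected nuclei of all 6 libraries. The monocyte gene Ly6c2 was at 0 to 7.78 CPM. The 7 neutrophil markers summed to 62.6, 68.6, 35.3, 77.8, 56.5 and 95.7 CPM, with 3 to 6 of the 7 undetected. Free RNA held 8.55 to 34.8 CPM of them and other macrophage nuclei 29.0 to 56.6 CPM. The selected nuclei were above free RNA in each library and above other macrophage nuclei in all but Tert HFD rep134. The label large peritoneal macrophage-like is a description, since the gene lists were chosen with earlier results of these data known. It was kept on the 16 of 22 further markers that were higher in every library, a number that was 11 after thinning. The other 6, Timd4, Ednrb, Marco, Cd93, Brinp3 and Lrg1, were not. Among the 16, Cebpb and Bhlhe40 lay below free RNA in the mean, Slpi and Gata6 less than 2 times above it, and Icam2 was sparse.

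The share of these nuclei was then compared across diet and genotype. Selected nuclei made up 1.21% of nuclei in mCherry SD rep144 (77 nuclei, exact 95% binomial interval 0.955 to 1.51) and 1.09% in mCherry SD rep146 (107 nuclei, 0.897 to 1.32). In mCherry HFD rep128 they made up 0.164% (36 nuclei, 0.115 to 0.227) and in mCherry HFD rep129 0.661% (30 nuclei, 0.447 to 0.943). Both libraries on the standard diet were above every library on the high-fat diet, and the intervals of the mCherry HFD pair did not overlap. Without the highest doublet scores mCherry HFD rep128 kept 13 nuclei (0.0717%), while the shares in mCherry SD rep144, mCherry SD rep146 and mCherry HFD rep129 were 1.14%, 1.02% and 0.618%. Tert HFD rep134 had 0.326% (43 nuclei, 0.236 to 0.438), TertCi HFD rep138 had 0.226% (31 nuclei, 0.153 to 0.320) and TertCi HFD rep140 had 0.117% (6 nuclei, 0.0429 to 0.254). Tert HFD rep136 had 0 of 3233 nuclei, which allows a share of up to 0.0928% by a limit of 3 counts (0.114% as the upper end of the exact interval used for the other libraries), so the Tert mice were as far apart as a library with 43 such nuclei and a library with 0. The intervals cover counting error only.

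Group means were 1.15% ± 0.0817 (SD, n = 2) for mCherry SD, 0.413% ± 0.352 for mCherry HFD, 0.163% ± 0.230 for Tert HFD and 0.171% ± 0.0771 for TertCi HFD, each with n = 2. An exact permutation test of the F statistic (upper tail) over the 8 libraries gave p = 0.295 (0.443 after Benjamini-Hochberg adjustment over 3 kinds of share), with 0.00952 the smallest p that the design allows. The differences between the 4 groups did not pass this test. Without Tert HFD rep134, which left that group with the library at 0, the exact permutation p was 0.0190. Fewer cells of this type in the tissue and fewer of their nuclei recovered cannot be told apart.

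The share depended on what it was taken of and on depth. Nuclei with any of the 3 macrophage genes made up 42.0% ± 1.80 (SD, n = 2) of mCherry SD libraries and 77.1% ± 5.96 of mCherry HFD libraries. Of these macrophage-gated nuclei, selected nuclei made up 2.97% and 2.53% in the mCherry SD mice rep144 and rep146, 0.201% and 0.908% in the mCherry HFD mice rep128 and rep129, 0.491% and 0% in the Tert HFD animals rep134 and rep136, and 0.395% and 0.217% in the TertCi HFD mice rep138 and rep140. The standard diet was again above every high-fat library, with an exact permutation p of 0.190 (adjusted 0.443), and 0.0286 without Tert HFD rep134. The p without Tert HFD rep134 again depends on the 0.5 nucleus added before the log. Median depth of selected nuclei ran from 3039 UMIs in TertCi HFD rep138 to 10927 in mCherry HFD rep128.

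After thinning every nucleus to 1000 UMIs, mCherry SD rep144 kept 12 nuclei (0.188%) and rep146 kept 15 (0.153%). In mCherry HFD, rep128 kept 8 (0.0364%) and rep129 kept 9 (0.198%). The Tert HFD mouse rep134 kept 22 (0.167%), rep136 again had 0, and the TertCi HFD mice kept 16 (rep138, 0.117%) and 2 (rep140, 0.0389%). With this threshold and denominator mCherry HFD rep129 was the highest library and the groups overlapped, with an exact permutation p of 0.686 (adjusted 0.686). As shares of macrophage-gated nuclei after the same thinning, both mCherry SD libraries (0.859% and 0.662%) lay above every high-fat library (at most 0.388%), with an exact permutation p of 0.419. With at least 2 of the 8 genes after thinning, a setting added after the data were seen, both mCherry SD libraries (0.424% and 0.327% of nuclei) were again above every high-fat library (at most 0.287%), with an exact permutation p of 0.438. At the nuclei's own depth, at least 2 genes gave 1.738% in mCherry SD rep146 and 1.742% in mCherry HFD rep129, so the diets overlapped there, with a log2 ratio of the means of -0.38. Whether the diets overlapped thus depended on the threshold, the depth and the denominator. The log2 ratio of the mCherry HFD to the mCherry SD mean share was -1.48 at the nuclei's own depth, -0.80 without mCherry HFD rep128 and -2.81 without mCherry HFD rep129. After thinning it was -0.54, and 0.22 without mCherry HFD rep128 and -2.23 without mCherry HFD rep129. With at least 2 genes after thinning it was -1.03. With at least 5 of the 8 genes required, the shares were 0.377% and 0.531% in mCherry SD, 0.0636% and 0.441% in mCherry HFD, 0.242% and 0% in Tert HFD, and 0.117% and 0.0584% in TertCi HFD, and the groups overlapped (exact permutation p = 0.467). As shares of macrophage-gated nuclei the same nuclei made up 0.925% and 1.23% in mCherry SD and at most 0.605% on the high-fat diet, without overlap (exact permutation p = 0.362). With at least 4 of the 8 genes the mCherry SD libraries held 0.691% and 0.807% of nuclei and the high-fat libraries at most 0.507%, also without overlap (exact permutation p = 0.390). With Saa3 and Prg4 left out of the 8 genes, mCherry SD held 0.942% and 0.991% of nuclei. The mCherry HFD libraries then held 0.0727% (rep128, 16 nuclei against 36) and 0.507% (rep129), with an exact permutation p of 0.343.

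**Figure D3:**
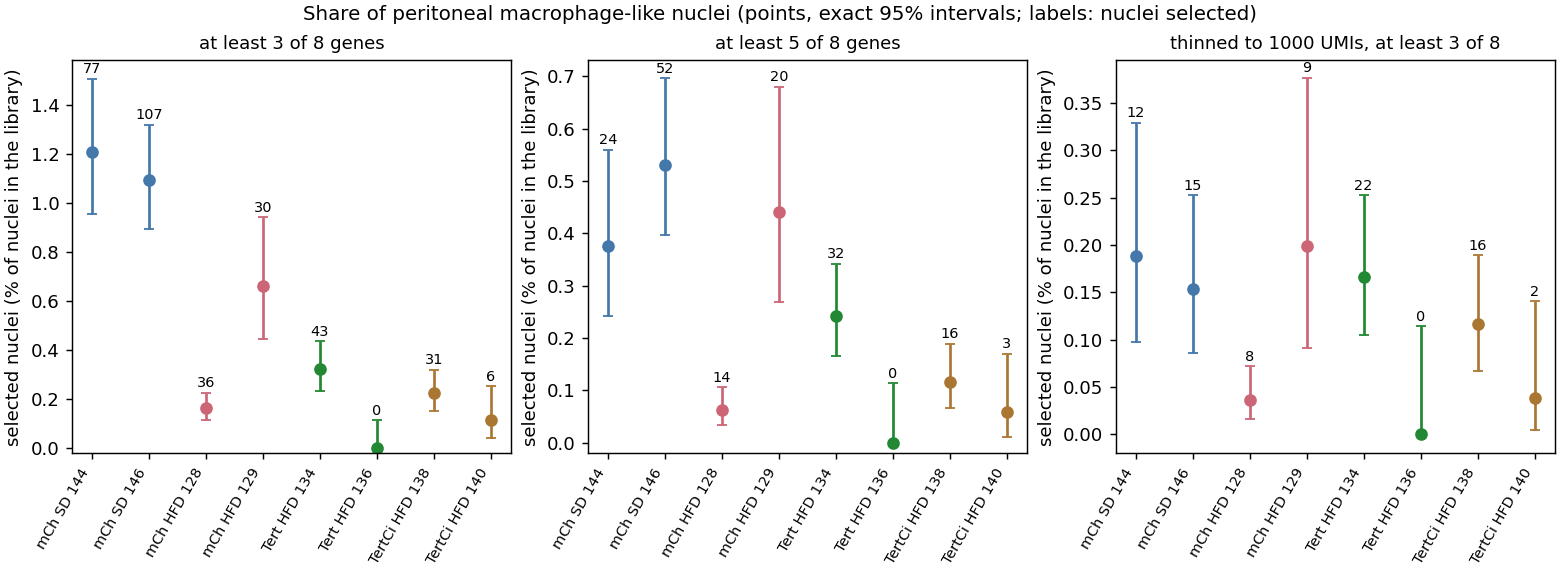
Selected nuclei as a percentage of all nuclei in each library (points, with exact 95% binomial intervals; numbers are nuclei selected; mCh stands for mCherry), with at least 3 genes, at least 5 genes, and at least 3 genes after thinning to 1000 UMIs. With 3 genes both mCherry SD libraries, at 1.21% and 1.09%, lie above all others, and after thinning mCherry HFD rep129, at 0.198%, is the highest.

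Expression in the selected nuclei was compared between diets in the mCherry mice, over UMIs summed per library and 10200 genes. Of a lipid-associated macrophage list 13 of 15 tested genes rose, and the 9 adipocyte markers fell. With an adjusted p under 0.05 (Benjamini-Hochberg), edgeR's quasi-likelihood test called 1687 genes (16.5% of genes tested), 929 of them higher on the high-fat diet (9.11%) and 758 lower (7.43%). Without mCherry HFD rep128 it was 1392 genes, and the majority turned, with 671 higher and 721 lower. It also turned without the highest doublet scores, with 460 higher and 630 lower. Without mCherry SD rep144 the count was 585, and with DESeq2 357. Only 14 of the 929 higher genes and 9 of the 758 lower genes reached 2 times the free RNA in the group where they were high, against 89 of 5093 and 60 of 5107 among all genes tested with a log2 fold change of that sign. A gene passes this limit through the group where it is high, so passing it is no support for the change. The part of free RNA in the calls was not tested.

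Of the 22 programme genes outside the rule, 20 were tested. None was called higher and 1, Cebpb, was called lower, a share of 1 in 20 that is near the 7.43% of all genes and no result about the list. Of the 20 fold changes, 10 were above 0 and 10 below, with a median log2 fold change of -0.0035, against -0.0011 over all genes. Gata6 had a log2 fold change of -0.23 (SE 0.27, adjusted p = 0.616). Rarb was at 0.04, Itga6 at -0.04, Selp at 0.04, Ltbp1 at -0.47, Fn1 at 0.52, Timd4 at -1.01 (adjusted p = 0.32) and Tgfb2 at -0.66 (adjusted p = 0.064), all from edgeR's quasi-likelihood test and none called. A p above the threshold does not show that these levels were equal. Cebpb fell by 1.04 on the log2 scale (SE 0.30, adjusted p = 0.0348), from 90.5 and 74.8 CPM to 51.6 and 38.9 CPM, without overlap between the groups. Its free RNA was at 96.3 and 77.6 CPM on the standard diet and at 69.6 and 158 CPM on the high-fat diet. The Cebpb call was lost in 6 other settings, among them DESeq2, without mCherry SD rep144 and without mCherry HFD rep129.

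**Figure D4:**
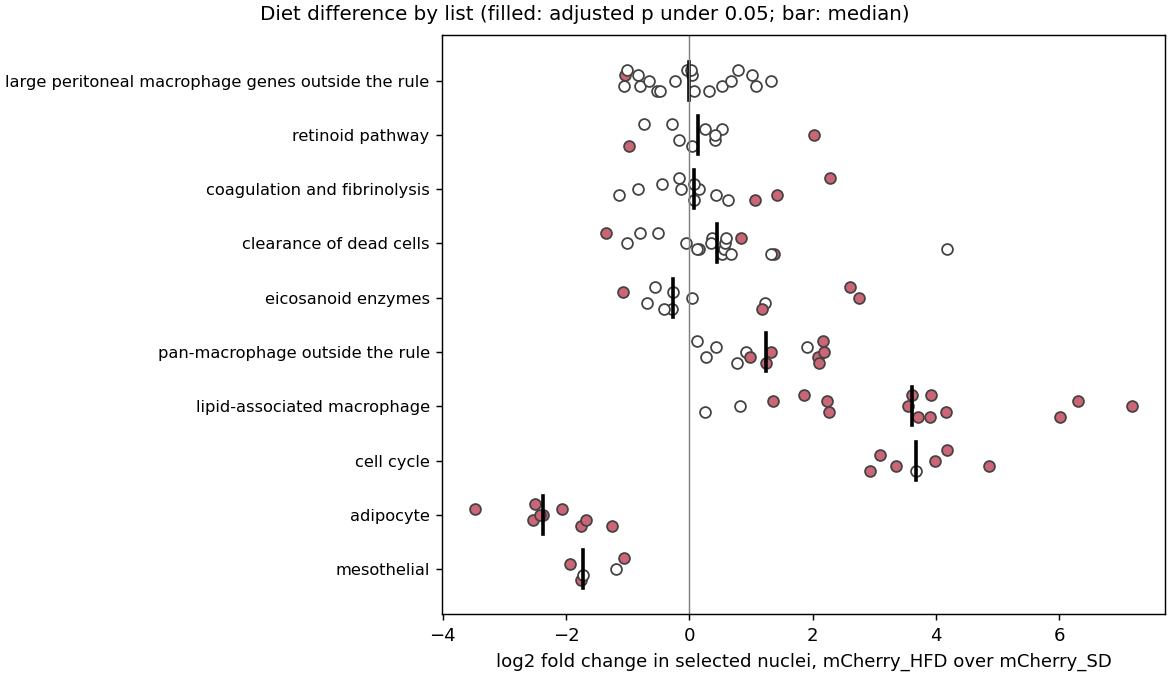
Log2 fold change on the high-fat diet (mCherry HFD over mCherry SD) in the selected nuclei for each tested gene of 10 lists, with filled points for adjusted p under 0.05 by edgeR's quasi-likelihood test and a bar at the list's median. The large peritoneal macrophage genes spread on both sides of 0 with 1 call, whereas lipid-associated macrophage genes lie above 0 and adipocyte genes below.

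Lipid-associated macrophage genes, which mark macrophages that take up lipid in obese fat, gave 13 calls among 15 tested, all higher, with a median log2 fold change of 3.61. Gpnmb was at 6.66 and 8.31 CPM on the standard diet and at 716 and 774 CPM on the high-fat diet, a log2 fold change of 6.31 (SE 0.29, adjusted p = 4.3e-07). Its free RNA went from 17.5 and 14.5 CPM to 969 and 1002 CPM, and the selected nuclei lay below it in each of the 4 libraries. Trem2, a lipid receptor, was at 2.66 and 2.77 CPM and then at 43.5 and 38.9 CPM, with free RNA at 3.13, 2.63, 158 and 212 CPM. Apoe, a lipid carrier, was at 24.0 and 48.5 CPM and then at 270.4 and 233 CPM, with free RNA at 20.6, 45.4, 569 and 1027 CPM. In each of these 3 genes the groups did not overlap in the nuclei, nor in free RNA.

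Pan-macrophage genes outside the rule gave 7 calls among 13 tested, all higher (median 1.24), complement genes 6 of 13, all higher (median 0.92), and genes of small peritoneal and monocyte-derived macrophages 4 of 11, all higher (median 0.90). The last were Ccr2 and the MHC class II genes H2-Aa, H2-Eb1 and Cd74. Ccr2, a chemokine receptor of monocytes, was at 12.0 and 25.6 CPM on the standard diet and at 87.0 and 62.2 CPM on the high-fat diet, with free RNA at 28.1, 27.6, 90.1 and 106 CPM. Over all genes tested 9.11% were called higher. Perivascular macrophage genes gave 1 call of 10, Folr2, a folate receptor, which is near that share and no result about the list. In both mCherry HFD libraries the summed levels of the pan-macrophage list (2686 and 2874 CPM), the complement list (1394 and 1758 CPM) and the small peritoneal list (1068 and 712 CPM) lay below the free RNA (3445 and 3845, 1775 and 2560, and 1916 and 2052 CPM), and the part of free RNA in the calls was not tested.

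Lists for functions known from large peritoneal macrophages are given against the 16.5% of all tested genes that were called. Among eicosanoid enzymes, 11 were tested, 3 were higher and 1 lower: the prostaglandin D synthase Hpgds (2.75), the leukotriene C4 synthase Ltc4s (2.61) and the thromboxane synthase Tbxas1 (1.18) rose, and the prostacyclin synthase Ptgis fell by 1.07, all in log2. Ptgis was at 121 and 123 CPM and then 63.9 and 77.8 CPM, with free RNA at 81.0, 80.3, 42.9 and 65.0 CPM. Among 13 coagulation genes 3 were higher, F7 (2.28), Plau (1.43) and Anxa2 (1.07), and the list's median was 0.07. That count is near the share of all genes and is no result about the list. Factor VII (F7) was at 5.33 and 11.1 CPM and then 34.0 and 81.7 CPM in the nuclei. Its free RNA was at 1.25, 2.63, 76.6 and 107 CPM, lower than the nuclei on the standard diet and higher than them on the high-fat diet.

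Of 18 genes for clearance of dead cells 3 were called, a share near that of all genes, so the count is no result about the list. Itgav (1.37) and Lrp1 (0.85) rose and the scavenger receptor gene Scarb1 fell by 1.35. Scarb1 was at 113 and 106 CPM on the standard diet and at 53.0 and 46.7 CPM on the high-fat diet, with free RNA at 68.2, 77.0, 65.3 and 48.3 CPM. The groups did not overlap in the nuclei. Of 10 retinoid genes, the retinoic acid synthase gene Aldh1a3 rose (2.02) and Aldh1a1 fell by 0.99, and Aldh1a1 free RNA stood at 478 and 542 CPM and then at 205 and 175 CPM. These calls too are near the share of all genes and no result about the list. Acute phase genes gave 0 calls of 4.

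Genes of other cell types moved with the diet. All 9 adipocyte markers were called lower (median -2.38), 3 of 5 mesothelial markers were lower (median -1.73), and 4 of 8 progenitor markers were higher (median 0.57). Ghr, the growth hormone receptor gene that is high in adipocytes, was at 13844 and 10426 CPM on the standard diet and at 1822 and 762 CPM on the high-fat diet, while its free RNA was at 11249, 9605, 762 and 986 CPM. Wt1, a mesothelial transcription factor that was called lower at -1.06, had a log2 fold change of 0.20 once nuclei with 2 or more mesothelial markers were left out. Wt1 is itself among the 7 genes that mark such nuclei. Leaving them out also removed Wt1 UMIs, so this value does not test the fall.

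The genes that rose most on the high-fat diet with a mean of at least 20 CPM were the macrophage elastase gene Mmp12 (7.18), Ankdd1a, the G-protein regulator Rgs1, Gpnmb, Hmga2 (a chromatin protein), Atp6v0d2 (a subunit of the lysosomal proton pump), Fat3 and Egfros. Those that fell most were Lsamp, Cyp2e1, Sctr, Cish, Rtl4, Slc1a3, Adrb3 and Pclo. Cish, a target of STAT5, fell by 5.82 on the log2 scale (adjusted p = 0.00018 in edgeR), from 61.2 and 54.0 CPM to 1.36 and 0 CPM. Adrb3, an adrenoceptor of adipocytes, fell by 5.25. Free RNA of Cish stood at 46.0, 88.2, 3.07 and 6.0 CPM, and that of Adrb3 at 256, 626, 21.1 and 45.8 CPM, so both differed between diets there as well.

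**Figure D5:**
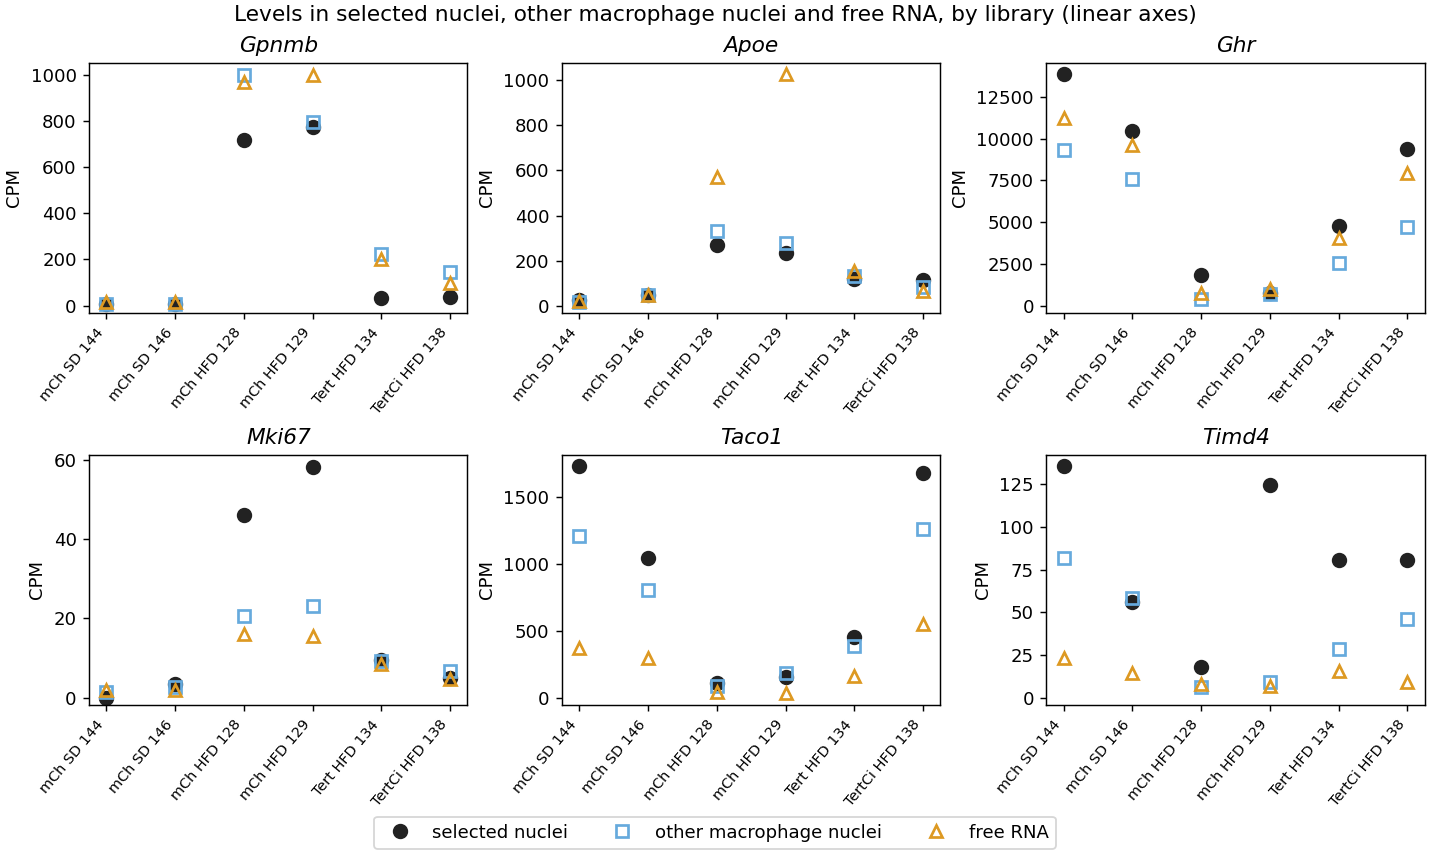
Level in CPM (linear axes) of 6 genes in the selected nuclei, other macrophage nuclei and free RNA of each library (mCh stands for mCherry). Gpnmb, Apoe and Ghr are high and low in the same diet groups as in free RNA, while Mki67 in mCherry HFD and Taco1 in every library lie above it, and Timd4 lies above it in every library.

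Some genes called with at least 2 times the free RNA are described next, chosen for naming after their values were seen. Mki67, a marker of dividing cells, was at 0 and 3.46 CPM on the standard diet and at 46.2 and 58.3 CPM on the high-fat diet. Its free RNA was at 1.88, 1.97, 15.9 and 15.7 CPM and other macrophage nuclei at 1.40, 2.58, 20.5 and 23.2 CPM. Groups without overlap were a condition for naming these genes. The log2 fold change of Mki67 was 4.18 with an SE of 0.67 (adjusted p = 0.0014). Of 7 cell cycle genes tested, 6 were called higher (Mki67, Top2a, Kif11, Kif15, Tpx2 and Knl1), with a median of 3.68. Few nuclei carried these genes: 3 or more cell cycle genes were found in 7 of 36 selected nuclei in mCherry HFD rep128, 4 of 30 in mCherry HFD rep129, 0 of 77 in mCherry SD rep144 and 3 of 107 in mCherry SD rep146. Of the 7 in mCherry HFD rep128, 4 held exactly 3 of the 8 genes, 6 had doublet scores among the highest, and all 7 passed the gate for lipid-associated macrophages. Of the 4 in mCherry HFD rep129, 0 held exactly 3 of the 8 genes, 1 had such a doublet score and all 4 passed that gate. Other macrophage nuclei, at lower median depth, held 3 or more cell cycle genes in 4.74% (rep128), 3.87% (rep129), 0.156% (rep144) and 0.750% (rep146). Among nuclei with exactly 2 of the 8 genes these shares were 15.6%, 4.08%, 0% and 4.76%, in the same order. Mki67 itself rested on 34 and 15 UMIs in the mCherry HFD libraries and on 0 and 5 in mCherry SD. Mki67 remained called without each library in turn, with DESeq2 (adjusted p = 0.0325) and without nuclei of high doublet score (5.06, adjusted p = 0.00101), while Top2a, a topoisomerase, was among other settings not called with DESeq2 or without mCherry HFD rep128. The diet effect on Mki67 did not differ detectably from that in other macrophage nuclei (difference 1.13, SE 0.82, adjusted p = 0.783).

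On the other side, Taco1, a mitochondrial translation factor gene, was at 1728 and 1042 CPM on the standard diet and at 106 and 156 CPM on the high-fat diet, a log2 fold change of -3.73 (SE 0.33, adjusted p = 3.2e-05), with free RNA at 368, 294, 39.2 and 37.5 CPM. Other macrophage nuclei went from 1210.4 and 801 CPM to 84.9 and 182 CPM. Slfn4, a schlafen gene of myeloid cells, was at 45.3 and 40.9 CPM and then at 9.51 and 27.2 CPM (log2 -1.76, adjusted p = 0.0215), and other macrophage nuclei held 0.732 to 1.51 CPM of it. Kcnip4, a potassium channel partner, fell by 1.41 on the log2 scale (adjusted p = 0.00339), from 154 and 169 CPM to 61.1 and 93.3 CPM, against 35.3 to 58.5 CPM in other macrophage nuclei. All values are from edgeR's quasi-likelihood test.

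For Tert against mCherry on the high-fat diet, only Tert HFD rep134 held selected nuclei, so that arm was 1 library and was assumed to vary like the other groups. With edgeR's quasi-likelihood test 164 genes were called (1.61%), 87 higher (0.853%) and 77 lower (0.755%). The split turned with DESeq2's size factors in edgeR (98 higher, 107 lower) and was 196 against 58 without the highest doublet scores. Without mCherry HFD rep128 it was 299 against 173 of 472 genes. DESeq2 called 48, and leaving out 1 library gave 31 (without mCherry SD rep144) to 486 (without mCherry SD rep146). Of 20 programme genes, 1 was called, Tgfb2, and it was higher, with a median over the list of 0.61 against -0.02 over all genes. Tgfb2 was at 181 and 214 CPM in mCherry HFD and at 493 CPM in Tert HFD rep134, a log2 fold change of 1.40 (SE 0.26, adjusted p = 0.0241). Free RNA held 29.4, 32.5 and 38.7 CPM, and the Tert library was also above both mCherry SD libraries. The Tgfb2 call was lost with DESeq2 (adjusted p = 0.239), with at least 4 of the 8 genes required (adjusted p = 0.0632), with at least 5 (adjusted p = 0.309) and without mCherry SD rep144 (adjusted p = 0.0867).

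Lipid-associated macrophage genes gave 5 calls of 15, all lower (median -2.02). Gpnmb was at 32.0 CPM in Tert HFD rep134, against 716 and 774 CPM in mCherry HFD, and its free RNA was at 201 CPM against 969 and 1002 CPM. Of 9 adipocyte markers 3 were higher (median 1.43). Of 7 cell cycle genes tested 0 were called in either direction, although all 7 fold changes were below 0 (median -1.61), and in that set Mki67 was at 9.41 CPM. Among genes of at least 2 times the free RNA, again named after their values were seen and only where groups did not overlap, Cd5l, a secreted macrophage protein, was at 10.9 and 35.0 CPM in mCherry HFD and at 156 CPM in Tert HFD rep134 (log2 3.14, SE 0.49, adjusted p = 0.0103), and other macrophage nuclei held 0.397 to 3.12 CPM. Kirrel3, an adhesion molecule known from neurons, was at 10.9 and 11.7 CPM and at 203 CPM (log2 4.22, SE 0.43, adjusted p = 0.00135), with free RNA at 41.7, 16.2 and 51.4 CPM. Wnt2, a secreted signalling protein, was at 12.2 and 15.6 CPM and at 60.3 CPM (log2 2.22, adjusted p = 0.0453).

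For TertCi against mCherry on the high-fat diet, with the same mCherry HFD controls and TertCi HFD rep138 as the only library with enough nuclei, edgeR's quasi-likelihood test called 376 genes (3.69%), 228 higher (2.24%) and 148 lower (1.45%). Without mCherry HFD rep128 it called 690. DESeq2 called 143, and leaving out 1 library gave 152 (without mCherry SD rep144) to 733 (without mCherry HFD rep129). Because the controls are shared, the values of the 2 genotypes are given side by side only. Of 20 programme genes 1 was called, again Tgfb2, at 478 CPM in TertCi HFD rep138 (log2 1.49, SE 0.28, adjusted p = 0.0120), and the list's median was 0.65 against -0.12 over all genes. The call was lost with DESeq2 (adjusted p = 0.0864) and with at least 4 (adjusted p = 0.193) or 5 (adjusted p = 0.156) of the 8 genes. Lipid-associated macrophage genes gave 7 calls of 15, all lower (median -2.95), with Gpnmb at 35.3 CPM and its free RNA at 99.3 CPM. Adipocyte markers gave 4 calls of 9, all higher, and progenitor markers 5 of 8, all lower.

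Kirrel3 was at 181 CPM (log2 4.19, adjusted p = 0.00131) and Wnt2 at 80.6 CPM (log2 2.77, adjusted p = 0.0161) in TertCi HFD rep138, while Cd5l was at 45.3 CPM and was not called (log2 1.49, adjusted p = 0.308). Taco1 was at 1677 CPM there and at 454 CPM in Tert HFD rep134, against 106 and 156 CPM in mCherry HFD. Kcnip4 was at 353 CPM in TertCi HFD rep138 and at 239 CPM in Tert HFD rep134, above all 4 mCherry libraries. Of the TertCi-lower genes, Nhs, a regulator of the actin skeleton, was at 5.04 CPM in TertCi HFD rep138, below its free RNA of 54.2 CPM, against 141 and 113 CPM in mCherry HFD. The selected nuclei of TertCi HFD rep138 held 198549 UMIs in all, so this level lies at the floor of what can be counted.

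Tert and TertCi were compared directly as 1 library against 1, with the spread taken from the mCherry pairs. By edgeR's quasi-likelihood test 0 genes were called (0%), 732 were at an unadjusted p under 0.05, and DESeq2 called 0 as well (121 at an unadjusted p under 0.05). Other settings gave calls: 86 without mCherry HFD rep128, 73 without mCherry HFD rep129, 27 without mCherry SD rep146, 74 with no filter on low counts, and 18 to 43 with at least 4 or 5 of the 8 genes or without nuclei of mesothelial RNA or high doublet score. Tgfb2 differed by -0.09 on the log2 scale (SE 0.31, adjusted p = 0.972), Kirrel3 by 0.03 (SE 0.41, adjusted p = 1) and Cd5l by 1.65 (SE 0.62, adjusted p = 0.64). Taco1 differed by -2.02 (SE 0.42, adjusted p = 0.34) and Nhs by 4.37 (SE 0.81, adjusted p = 0.208), with Nhs at 119 CPM in Tert HFD rep134. None of these passes the threshold, which with 1 library a side does not show that the genotypes act alike. The Nhs difference also rests on a level at the floor in TertCi HFD rep138.

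The modified locus itself was scarcely seen. Cdkn1a was at 2.66, 3.46, 16.3, 7.78, 9.41 and 10.1 CPM in the selected nuclei, with free RNA at 1.88, 3.29, 20.8, 33.5, 14.0 and 10.6 CPM, and mCherry was at 0 in all 6 libraries. These counts do not check the genotype labels.

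Whether diet and genotype acted on the selected nuclei as on other macrophage nuclei of the same mice was tested as a difference of effects within libraries over 16553 genes. The mix of macrophage-gated nuclei outside the selection differed between groups. Nuclei passing only the lipid-associated or only the perivascular gate numbered 18 and 713 in mCherry SD rep144 and 21 and 1200 in rep146. In mCherry HFD they were 7641 and 2023 (rep128) and 1162 and 360 (rep129). In Tert HFD rep134 they were 728 and 2518, and in TertCi HFD rep138 400 and 1686. The part of this mix in the differences was not tested. For diet, 415 genes differed (2.51% of genes tested), 347 with the more positive effect in the selected nuclei. Timd4 went in other macrophage nuclei from 81.7 and 58.5 CPM to 6.23 and 8.96 CPM but stood at 17.7 and 124 CPM on the high-fat diet in the selected nuclei, against 135.8 and 56.1 CPM on the standard diet. The difference of log2 effects was 2.28 (SE 0.35, adjusted p = 3.82e-08 in edgeR), and the selected nuclei of the mCherry HFD pair were far apart. The SE draws on a spread partly shared across genes and does not show this distance between the mice. Ednrb was at 268 and 343 CPM and then 134.5 and 196 CPM in other macrophage nuclei, while in the selected nuclei it was at 154 and 217 CPM and then 216 and 358 CPM (difference 1.43, SE 0.21, adjusted p = 9.95e-09). The diets did not overlap in other macrophage nuclei and overlapped in the selected nuclei.

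Of the coagulation list, F10 and F7 went the other way, while F13a1 did not, as given below. F10 (factor X) was at 2.10 and 2.38 CPM and then 28.6 and 17.4 CPM in other macrophage nuclei, but at 25.3 and 29.1 CPM and then 32.6 and 66.1 CPM in the selected nuclei, so the difference of effects was -2.82 (SE 0.50, adjusted p = 6.95e-06). On the standard diet F10 was thus seen at a higher level in the selected nuclei than in other macrophage nuclei and free RNA (2.5 and 2.63 CPM). For F7 the difference was -3.30 (adjusted p = 7.37e-05). The mannose receptor gene Mrc1 (0.86), Cd163 (1.38), F13a1 (1.23) and Retnla (2.21), a secreted product of alternatively activated macrophages, had more positive diet effects in the selected nuclei. Retnla was at 54.6 and 61.7 CPM and then 181 and 54.5 CPM in the selected nuclei, and its free RNA was at 85.1, 111, 136.1 and 183 CPM. Markers of other cells were also among the genes with more positive diet effects there. They included the adipocyte markers Cidec (1.45), Plin4 (1.16), Plin1 (1.15) and Ghr (0.68) and the progenitor markers Col3a1 (0.86) and Fbn1 (0.77). The part of RNA from other cells in these differences was not tested.

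The count of diet differences rested on single libraries. It was 86 without mCherry SD rep144, 24 without mCherry SD rep146, 143 without mCherry HFD rep128 and 718 without mCherry HFD rep129. Its split into 347 more positive and 68 more negative effects became 83 and 60 without mCherry HFD rep128. For Tert, 116 genes differed (0.701%), 32 more positive and 84 more negative. Leaving out 1 library gave 22 (without mCherry SD rep146) to 367 (without mCherry HFD rep129) genes, and without mCherry HFD rep128 the majority turned, to 73 more positive and 55 more negative. They included Tgfb2 (1.73, adjusted p = 3.81e-06), Cd5l (4.89, adjusted p = 4.65e-09) and Kirrel3 (3.46, adjusted p = 2.4e-09), all with the more positive effect in the selected nuclei, and Gpnmb (-2.45, adjusted p = 4.16e-09). For TertCi, 262 genes differed (1.58%), and 104 (without mCherry SD rep146) to 496 (without mCherry HFD rep129) with 1 library left out. They included Tgfb2 (2.31, adjusted p = 3.58e-09), Slpi (4.01), Timd4 (-1.90), F13a1 (-2.21) and Mrc1 (-1.87). Tgfb2 in other macrophage nuclei was at 13.8 and 25.6 CPM in mCherry HFD, 14.3 CPM in Tert HFD rep134 and 8.57 CPM in TertCi HFD rep138. The Tert and TertCi libraries were thus not above both controls there, whereas in the selected nuclei they were.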

How the data were processed

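Nuclei from frozen visceral white adipose tissue of 8 mice were stained with DAPI, purified by flow sorting and made into 10x Genomics 3' libraries, per the labels' protocols. Each deposited matrix holds raw UMI counts (56749 features by barcode), with no normalisation and no choice of nuclei. Cell Ranger 7.1.0 produced them per the file headers, while the submitters' processing notes name Cell Ranger 5.0.1, bcl2fastq 2.20.0 and the build mm39. The genome given here was of another build, so no coordinates or sequences are printed. Mice were processed in batches of 2. Which mice shared a batch was not given, so no batch term could be fitted, and batch and group cannot be told apart.

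Nuclei were selected by the stated rule from barcodes with at least 1000 UMIs. Other macrophage nuclei held at least 2 of the 3 macrophage genes and none of the 8. Free RNA was the sum of barcodes with at most 100 UMIs. Doublets were not removed: as an alternative, the highest scrublet scores were left out at 0.8% per 1000 nuclei. Selected nuclei were compared over UMI sums per library in 6 libraries with at least 10 such nuclei (Tert HFD rep136 with 0 and TertCi HFD rep140 with 6 were left out) by edgeR's quasi-likelihood test with 1 fit over all groups, TMM scaling, filterByExpr and Benjamini-Hochberg adjustment at 0.05. The Tert and TertCi arms are 1 library each in that fit. The 11 rule genes were left out of the tested genes. The comparison with other macrophage nuclei kept the library as a block. CPM are per 1000000 UMIs of the summed nuclei. Shares were tested by exact permutation of the 8 libraries on a log2 scale with 0.5 nucleus added, because 1 library had none.

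The genes named per comparison were the 8 with the largest log2 fold change in each direction among called genes with a mean of at least 20 CPM and groups that did not overlap, plus genes of lists (at most 6 per list), leaving out unnamed gene models. For the comparison with other macrophage nuclei they were the 20 highest ratios at 50 CPM or more. The members, gene lists and tests were chosen with earlier results of these data known. On simulated counts for the diet comparison (9397 genes), 69 of 97 genes changed by a log2 of 2 and 86 of 93 changed by 3 were called, with 9 false calls among 164. Every simulated gene had the same spread, with no differences in free RNA or doublets between libraries. The rate of false calls thus does not carry over to the real diet calls. Tests used edgeR 4.0.16, DESeq2 1.42.0 (R 4.3.3, limma 3.58.1) and scipy 1.17.1, and matrices were read in Python 3.11.15 with scanpy 1.11.5 and numpy 2.4.6. Alternatives changed the gene threshold, the genes of the rule, depth, doublets, mesothelial RNA, scaling, filter, tool and libraries. After results were seen, at least 5 of the 8 genes, 2 genes after thinning and a limit against free RNA were added.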

Additional observations from a re-analysis of the deposited data

Results flagged for a closer look

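Effects differed between the selected nuclei and other macrophage nuclei of the same libraries in 415 genes for diet, 116 genes for Tert and 262 genes for TertCi, by edgeR's quasi-likelihood test of the difference itself with Benjamini-Hochberg adjustment. For diet, 347 genes had the more positive effect in the selected nuclei and 68 the more negative. For Tert these numbers were 32 and 84, and for TertCi 32 and 230. Without mCherry HFD rep128 they were 83 and 60 for diet, 73 and 55 for Tert, where the majority turned, and for TertCi 57 of 195 were more positive. Retnla, Timd4 and Ednrb were among the first kind for diet, and F7 and F10 among the second. The adipocyte markers Cidec, Plin1, Plin4 and Ghr and the progenitor markers Col3a1 and Fbn1 were of the first kind for diet as well. For TertCi, Dcn (-3.24), Fbn1 (-2.18), Plin1 (-1.26) and Cidec (-1.11) were among the more negative effects. The part of RNA from other cells in these counts was not tested. The Tert and TertCi counts rest on 1 library with at least 10 such nuclei in each genotype. The mix of macrophage-gated nuclei outside the selection also differed between groups, and its part in these counts was not tested.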

How the results depend on the processing

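No paired analysis was possible because the replicate numbers differ between the groups. The share of selected nuclei gave exact permutation p-values of 0.0190 to 0.571 when 1 library was left out (0.0286 to 0.524 among macrophage-gated nuclei), and the lowest of both came without Tert HFD rep134. Both of those lowest values depend on the 0.5 nucleus added before the log. The thinned log2 ratio of mCherry HFD to mCherry SD ranged from -2.23 to 0.22 and turned positive without mCherry HFD rep128. Counts of called genes moved as well. With no filter on low counts, 574 genes were called for Tert, 703 for TertCi and 74 between Tert and TertCi. DESeq2 called 357 for diet, 48 for Tert and 143 for TertCi, and 357 of the diet calls, 46 of the Tert calls and 143 of the TertCi calls were among those of edgeR. At least 4 of the 8 genes gave 18 between Tert and TertCi, and at least 5 gave 1049 for diet and 37 between Tert and TertCi. Without mesothelial RNA the counts were 340, 630 and 33 for Tert, TertCi and their difference. Without the highest doublet scores they were 1090 for diet, 254 for Tert and 43 for Tert against TertCi. Of the diet calls, 23 reached 2 times the free RNA. With 1 library left out, counts ranged from 585 to 1860 for diet (585 without mCherry SD rep144), 31 to 486 for Tert (31 without mCherry SD rep144, 486 without mCherry SD rep146), 152 to 733 for TertCi (152 without mCherry SD rep144, 733 without mCherry HFD rep129) and 0 to 86 for Tert against TertCi (86 without mCherry HFD rep128). Differences of effect from other macrophage nuclei ranged from 24 to 718 for diet (24 without mCherry SD rep146), 22 to 367 for Tert (22 without mCherry SD rep146) and 104 to 496 for TertCi (104 without mCherry SD rep146). Of the 22 programme genes, those higher in every library numbered 16 or 17 with 1 library left out, 15 with at least 4 of the 8 genes, 14 with at least 5 and 11 after thinning to 1000 UMIs. Of single genes named, Wt1 turned to 0.20 for diet without mesothelial RNA, a setting that drops nuclei partly by Wt1 itself. Calls of other named genes, such as Cebpb and Tgfb2, were lost in some settings. The cause of these changes was not tested. Nuclei are few, 30 to 107 per library tested, and Tert and TertCi rest on 1 library each.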
